A study of Mus musculus with 10 samples.

Results

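Igk transcripts that use the J segment Igkj5 (J5 joins) were described in small pre-B cells of the mouse bone marrow. A join was taken as a J5 join where the deposited J call was IGKJ5 with the allele removed. By this rule 54641 of 161780 counts (33.8%) were J5 joins, in 13840 of 42351 clonotypes counted per sample. A clonotype is a V segment, a J segment and the nucleotides of the CDR3 as 1 unit, and 7577 of the 23998 distinct clonotypes over all samples used J5. The CDR3 is the part of the transcript around the joint, from the codon after the conserved cysteine of V to the codon before the conserved phenylalanine of J.

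The samples came from 5 WT replicates and 5 replicates labelled rsCBE, a mutant that the series writes with a delta and whose name the labels do not spell out. The mice were C57Bl6 of 6 to 12 weeks, and the cells had been purified by FACS. RNA was copied into amplicon libraries, which were read as 151-bp pairs on a MiSeq. The 5 WT samples held 22765, 21392, 13817, 3109 and 9161 counts, and the 5 rsCBE samples 24083, 23301, 18263, 14233 and 11656. Replicates 1 and 2 of each genotype were deposited as 1 library each (called batch 1 here), and replicates 3 to 5 as 2 parts each, which were added (batch 2). The labels name no batch. WT replicate 4 stands apart by its depth, with 1084 J5 counts against 2777 to 9402 in the other samples. The labelled cell type could not be checked against markers, because the table holds Igk rearrangements and no other genes. In RNA from many cells, fewer cells with a J5 join and less RNA from each such join cannot be told apart.

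The kappa light chain gene is assembled by joining 1 of many V segments to 1 J segment. An allele that already carries a join can rearrange again, between a V segment upstream and a J segment downstream of the first joint, a process called receptor editing when it replaces an expressed chain. J5 is the last J segment before the constant region, so a join to J5 leaves no further J segment for such a replacement. A V segment that lies in the same orientation as J joins by deletion of the DNA between them, and a V segment in the opposite orientation joins by inversion. Only an in-frame join without a stop codon can give a light chain.

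The germline sequences show which bases of a CDR3 can come from each J segment. They were read from GENCODE M21 transcripts of build GRCm38 of the mouse genome, where all 4 lie on the forward strand. J5 lies at chr6:70723886-70723923, J4 at chr6:70723548-70723585, J2 at chr6:70722916-70722954 and J1 at chr6:70722562-70722599. Capitals mark the part that falls in the CDR3, ahead of the phenylalanine codon.
Igkj5: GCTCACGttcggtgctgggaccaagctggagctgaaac
Igkj4: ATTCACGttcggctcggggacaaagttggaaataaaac
Igkj2: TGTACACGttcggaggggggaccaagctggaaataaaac
Igkj1: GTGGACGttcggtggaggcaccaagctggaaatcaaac
The CDR3 part has 7 bases in J5, J4 and J1 and 8 in J2. Read in frame, the J5 part ends in leucine and threonine (LT), that of J4 in phenylalanine and threonine, that of J2 in tyrosine and threonine and that of J1 in tryptophan and threonine.

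The 3 commonest in-frame J5 clonotypes and the commonest out-of-frame one show what the joints look like. Capitals mark the germline J5 bases at the end of the CDR3.
Igkv8-16 to J5: cagcagcatttacacattccGCTCACG
Igkv8-27 to J5: catcaatacctctcctcGCTCACG
Igkv9-120 to J5: ctacaatatgctagttctccGCTCACG
Igkv5-43 to J5: caacagagtaacagctggcctcaTCACG
The germline V ends, read from the same annotation, are given for comparison.
Igkv8-16 end: cagcagcatttacacattcctcc
Igkv8-27 end: catcaatacctctcctcg
Igkv9-120 end: ctacaatatgctagttctcctcc
Igkv5-43 end: caacagagtaacagctggcctca
The Igkv8-16 clonotype encodes QQHLHIPLT, keeps all 7 J5 bases and 20 of 23 germline V bases, and has no base left over. It took 0.718, 1.01, 2.12, 3.87 and 3.96% of J5 counts in WT replicates 1 to 5, and 0.905, 0.957, 4.52, 4.51 and 4.19% in rsCBE replicates 1 to 5. It was low in replicates 1 and 2 and high in replicates 3 to 5 of both genotypes, which overlapped. The Igkv8-27 clonotype encodes HQYLSSLT, a residue shorter, and took 1.94% ± 0.579 of J5 counts in WT and 2.02% ± 0.297 in rsCBE (± SD, 5 samples each). At its joint 1 base fits both the V and the J5 germline. The Igkv9-120 clonotype, LQYASSPLT, took 1.34% ± 0.415 and 1.16% ± 0.319 (± SD, 5 samples each). The out-of-frame Igkv5-43 clonotype has 28 bases, all 23 germline V bases and 5 of the J5 bases. It took 0.811% ± 0.486 in WT and 1.10% ± 0.477 in rsCBE (± SD, 5 samples each). Each of these 4 clonotypes was found in all 10 samples.

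J5 took a larger share of the repertoire in every rsCBE sample than in any WT sample, and the same held among in-frame joins and among the other joins taken alone. Its share of all counts was 23.9, 25.9, 28.3, 34.9 and 30.3% in WT replicates 1 to 5 and 38.5, 40.4, 39.5, 37.7 and 39.7% in rsCBE replicates 1 to 5. The groups did not overlap, and WT replicate 4, the sample of least depth, was the highest WT sample (Wilson 95% interval 33.2 to 36.6%). The mean rose from 28.6% ± 4.24 to 39.2% ± 1.04 (± SD, 5 samples each; two-sided exact permutation p = 0.00794, the smallest that 5 against 5 samples can give, and 0.0198 adjusted over the 5 J segments). With the replicate number as a block the exact sign-flip p was 0.0625, the smallest that 5 pairs can give, and 0.104 adjusted. A permutation of the genotypes inside each batch gave an exact p of 0.0167, and 0.0417 adjusted. The difference was 14.6 percentage points in batch 1 and 7.84 in batch 2, where too few samples are left to reach the threshold.

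Among in-frame joins only, J5 took 23.1, 24.8, 27.4, 31.0 and 29.4% in WT and 35.4, 37.1, 36.7, 35.3 and 36.4% in rsCBE. The lowest rsCBE sample lay above the highest WT sample. The difference of means, 27.1% ± 3.21 against 36.2% ± 0.785 (± SD, 5 samples each), was 9.05 percentage points, 12.3 in batch 1 and 6.88 in batch 2. Its exact permutation p was 0.00794, and 0.0556 after adjustment over the 14 J5 readouts compared between genotypes, which does not pass. Among joins that were not in frame, J5 took 26.2, 28.6, 30.2, 42.3 and 32.6% in WT and 45.7, 46.5, 44.4, 42.4 and 45.03% in rsCBE. These groups also did not overlap, although WT replicate 4 lay just under the lowest rsCBE sample. The means were 31.99% ± 6.19 and 44.8% ± 1.54 (± SD, 5 samples each), with the same exact permutation p of 0.00794 and adjusted p of 0.0556. The difference was 12.8 percentage points, 18.7 in batch 1 and 8.94 in batch 2. Both adjusted values moved to 0.037 without WT replicate 2 or without WT replicate 4. With each clonotype counted once the difference among in-frame joins was 5.59 percentage points and passed (exact permutation test, adjusted p = 0.0317). With all counts the exact p was already the smallest possible. These adjusted values therefore moved with the other readouts adjusted alongside, and passing does not show a larger difference.

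**Figure D1:**
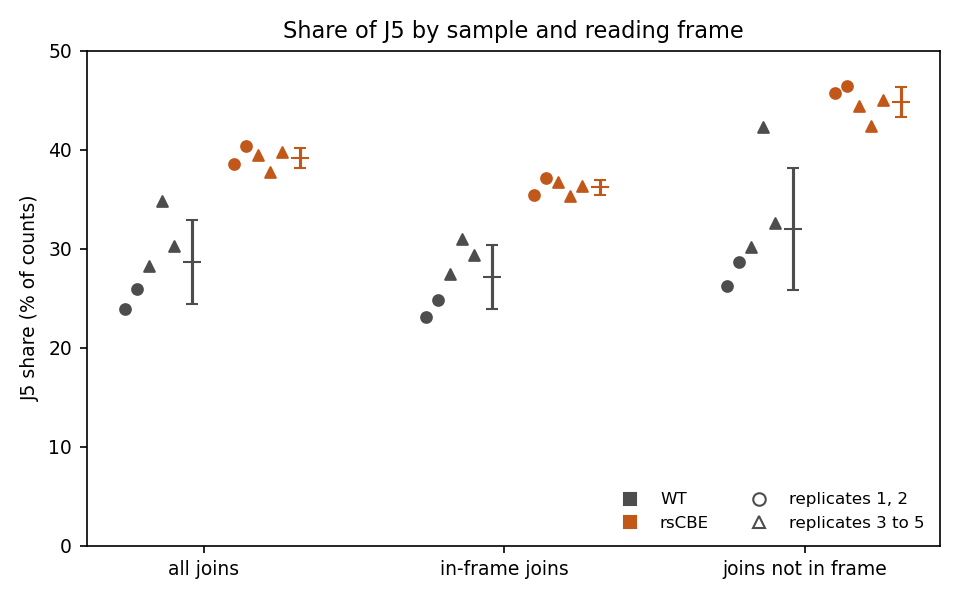
Share of J5 (percent of counts, vertical axis) among all joins, in-frame joins and joins not in frame, for each WT (grey) and rsCBE (orange) sample; circles are replicates 1 and 2, triangles replicates 3 to 5, and bars the mean and SD of 5 samples. In each of the 3 classes every rsCBE sample lies above every WT sample, and WT replicate 4, at 42.3% of joins not in frame, lies just under the lowest rsCBE sample.

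J5 joins were in frame less often than joins to J1 or J2 in all 10 samples. Of J5 counts, 74.3, 68.1, 67.1, 58.2 and 68.5% were in frame in WT replicates 1 to 5, and 64.3, 60.2, 59.1, 61.9 and 56.1% in rsCBE replicates 1 to 5. WT replicate 4 lay among the rsCBE samples, and the other 4 WT samples lay above all rsCBE samples. In WT replicate 4 the share rests on 631 of 1084 counts (Wilson 95% interval 55.3 to 61.1%). The means were 67.2% ± 5.77 and 60.3% ± 3.07 (± SD, 5 samples each), a difference of -6.93 percentage points that did not pass after adjustment (exact permutation p = 0.0476, adjusted p = 0.111). It passed without WT replicate 4, at -9.19 percentage points (exact permutation test, adjusted p = 0.037), and with each clonotype counted once, at -9.46 (exact permutation test, adjusted p = 0.0317). Batch 1 gave -8.98 and batch 2 -5.57 percentage points.

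Joins not in frame were nearly all shifted in length, since in-frame lengths with a stop codon made up 0.999% of J5 counts in WT and 1.17% in rsCBE. A remainder of 1 base after division of the CDR3 length by 3 was held by 18.4% ± 3.45 of J5 counts in WT and 22.3% ± 1.97 in rsCBE. A remainder of 2 bases was held by 13.3% ± 2.998 and 16.2% ± 1.04 (± SD, 5 samples each). Both kinds of frame shift were thus more frequent on average in rsCBE, with overlap between the groups.

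Over all 10 samples the in-frame share was 63.8% for J5, 71.6% for J1, 72.2% for J2 and 65.5% for J4. Within samples, J5 lay 7.81 percentage points below J1 and 8.46 below J2, lower in 10 of 10 samples each (two-sided exact sign-flip p = 0.00195, the smallest that 10 samples can give, and 0.00469 adjusted over 12 such comparisons). With each clonotype counted once the difference from J2 was smaller, at -4.16, and still passed (adjusted exact p = 0.0156). The difference of J5 from J4 was -1.75 percentage points, with J5 higher in 3 of 10 samples, and did not pass (adjusted exact p = 0.0859). Without clonotypes of 1 count it was -2.53 and passed (adjusted exact p = 0.0469), and with each clonotype counted once it changed sign, at 0.296. By genotype, the mean in-frame share was 73.1% in WT and 70.0% in rsCBE for J1, 73.6 and 70.9% for J2, and 68.2 and 62.8% for J4. The shares of these J segments thus also had lower means in rsCBE, so whether J5 differed from them was tested. The J5 share minus that of all other joins of the same sample was -4.90 ± 3.56 percentage points in WT and -8.16 ± 0.989 in rsCBE (± SD, 5 samples each). This difference between genotypes of -3.26 did not pass (exact permutation p = 0.0635, 0.190 adjusted over 3 such differences). Without WT replicate 4 it reached -4.84 (exact permutation test, adjusted p = 0.0238).

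**Figure D2:**
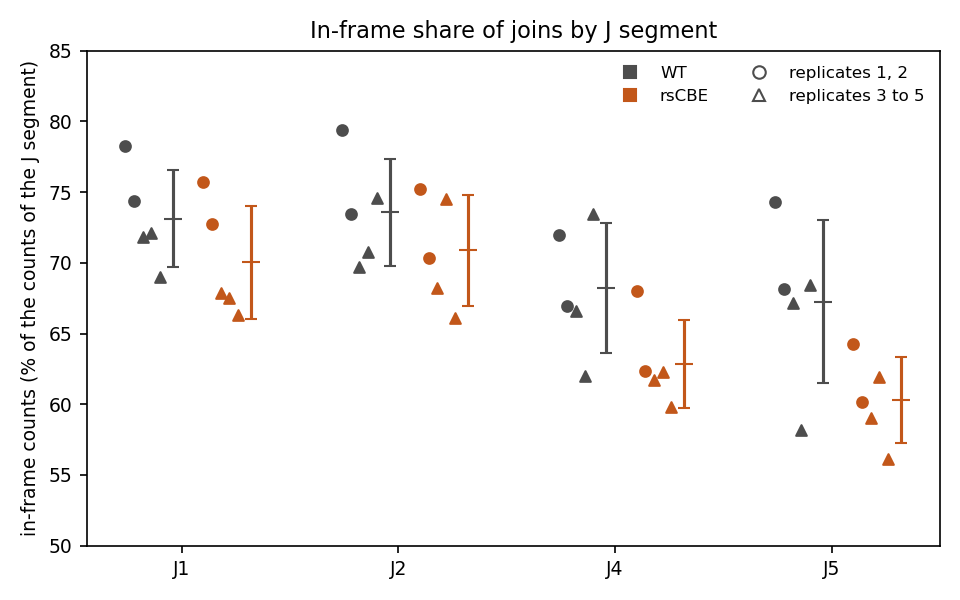
In-frame share (percent of the counts of a J segment, vertical axis starting at 50%) for J1, J2, J4 and J5 in each WT (grey) and rsCBE (orange) sample; circles are replicates 1 and 2, triangles replicates 3 to 5, and bars the mean and SD of 5 samples. J5 lies below J1 and J2 in all samples, at a mean of 67.2% in WT and 60.3% in rsCBE, and WT replicate 4 is the lowest WT sample for J5 at 58.2%.

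The CDR3 of in-frame J5 joins was mostly 27 bases, 9 residues, long in both genotypes. The mean length was 26.67 bases ± 0.037 in WT and 26.64 ± 0.092 in rsCBE (± SD, 5 samples each), and no difference was detected (exact permutation p = 0.5, adjusted p = 0.677). Lengths of 27 bases made up 80.5, 74.1, 73.9, 76.7 and 75.3% of in-frame J5 counts in WT and 72.8, 69.5, 73.3, 76.2 and 70.4% in rsCBE. The rest were chiefly 24 bases (14.5% in WT, 16.8% in rsCBE) and 30 bases (5.99 and 7.08%). Within samples the J5 mean was 0.241 bases under that of J2, whose germline part is longer, and lower in 10 of 10 samples (exact sign-flip p = 0.00195, adjusted p = 0.00469); with each clonotype counted once it was 0.383 bases under. The difference from J1, 0.0634 bases, and from J4, -0.117 bases, did not pass (adjusted exact p = 0.0914 and 0.0859).

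The J-encoded end of the CDR3 was much alike in WT and rsCBE. Of in-frame J5 counts, 83.1, 81.4, 79.8, 86.1 and 77.8% ended in the germline residues LT in WT replicates 1 to 5, and 83.1, 81.6, 83.6, 81.1 and 82.7% in rsCBE replicates 1 to 5. The rsCBE samples all lay within the range of the WT samples (81.6% ± 3.16 against 82.4% ± 1.05, ± SD, 5 samples each; exact permutation p = 0.595, adjusted p = 0.694). The next end was PT, at 7.87% in WT and 7.83% in rsCBE. The end FT took 2.03 and 2.21% and IT 1.75 and 1.75%, and each other end about 1% or less. In most of these the threonine encoded by the last whole J5 codon was kept and the codon ahead of it was changed at the joint. Proline, often the last whole codon of a germline V segment, was the third residue from the end in 77.2% ± 2.21 of in-frame J5 counts in WT and 73.9% ± 2.57 in rsCBE. The end PLT took 65.0% ± 3.67 and 62.3% ± 2.13 (± SD, 5 samples each).

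Counted in bases, the end of J5 was trimmed little. Of the 7 germline bases, 6.02 ± 0.069 were kept on average in WT and 6.05 ± 0.042 in rsCBE (± SD, 5 samples each; exact permutation p = 0.397, adjusted p = 0.617). A CDR3 with the whole J5 part was held by 51.6, 51.0, 51.5, 44.9 and 46.8% of J5 counts in WT and by 50.2, 48.8, 52.1, 49.99 and 49.7% in rsCBE. The groups overlapped (means of 49.2% ± 3.09 and 50.2% ± 1.23, ± SD, 5 samples each; exact permutation p = 0.532, adjusted p = 0.677). A loss of 1 base, leaving 6, was next at 28.5 and 28.2%, followed by 4 kept bases at 12.2 and 11.9% and 5 kept bases at 5.81 and 5.85%. A base added or kept from V that matches J5 by chance counts as kept here.

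The number of bases kept differed by reading frame. Among in-frame J5 counts, all 7 bases were kept in 57.5% ± 1.88 in WT and 61.0% ± 1.73 in rsCBE. Among out-of-frame counts the same end was held by 31.4% ± 3.36 and 32.4% ± 1.37 (± SD, 5 samples each), and 6 kept bases were the commonest state at 39.3 and 39.9%. The in-frame values for 7 bases did not overlap between the genotypes, with WT samples from 54.6 to 59.4% and rsCBE samples from 59.5 to 63.9%. Every other number of kept bases overlapped in frame, and all numbers did so out of frame and over all J5 counts. This was seen after the values were computed and was not tested. Compared with the other J segments, J5 kept 0.177 bases more of its own germline part than J1 in 10 of 10 samples (exact sign-flip p = 0.00195, adjusted p = 0.00469), and 0.074 more with each clonotype counted once (adjusted exact p = 0.0381). It kept 0.193 bases fewer than J4 in 9 of 10 samples (exact sign-flip p = 0.00391, adjusted p = 0.00781). It kept 0.424 bases fewer than J2 in 10 of 10 samples (exact sign-flip p = 0.00195, adjusted p = 0.00469), but the germline part of J2 is a base longer.

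**Figure D3:**
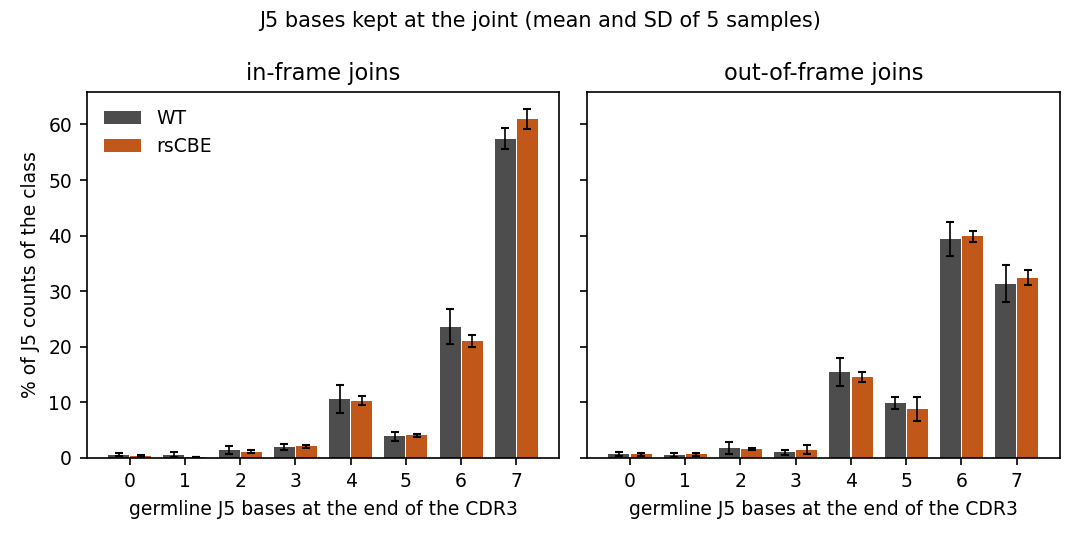
Germline J5 bases at the end of the CDR3 (horizontal axis) against the percent of J5 counts of the class (vertical axis), for in-frame joins (left) and out-of-frame joins (right); bars are the mean and error bars the SD of 5 WT (grey) or 5 rsCBE (orange) samples. In-frame joins mostly keep all 7 bases, and among out-of-frame joins 6 kept bases are the commonest state, at 39.3% in WT and 39.9% in rsCBE.

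Most J5 joints held no base beyond those the germline V and J5 ends account for. CDR3 length minus the germline V and J5 bases kept was 0 in 48.1% of J5 counts in WT and 49.6% in rsCBE. It was below 0, where a base fits both ends, in 33.8 and 33.3%, and above 0 in 18.2% ± 0.7096 and 17.1% ± 1.41 (± SD, 5 samples each). The mean surplus per J5 join was 0.766, 0.692, 0.645, 0.731 and 0.896 bases in WT replicates 1 to 5 and 0.664, 0.619, 0.107, 0.436 and 0.265 in rsCBE replicates 1 to 5. It was lower on average in rsCBE, by 0.328 bases, which did not pass after adjustment (0.746 ± 0.095 against 0.418 ± 0.235, ± SD, 5 samples each; exact permutation p = 0.0159, adjusted p = 0.0741). Batch 1 gave a difference of -0.087 bases and batch 2 of -0.488. The size depended on rare clonotypes and on the part used: it was -0.936 with each clonotype counted once, -0.029 without clonotypes of 1 count and -0.033 with part b alone. V ends could be read for 111 of 114 V segments. A V segment whose annotated end is short, or that differs from the annotation near its start, adds to this mean, so it is not a count of added nucleotides.

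A small set of J5 clonotypes recurred in every sample. In all 10 samples, 66 clonotypes were found, 0.871% of the distinct J5 clonotypes, with 31.1% of all J5 counts. Of these, 77.3% were in frame, and 100% of those with a readable V end had no surplus base. At the other end, 5592 clonotypes (73.8%) were found in 1 sample and held 12.4% of the counts. Of those, 50.02% were in frame and 13.9% had no surplus base. V bases were counted as kept only up to the first mismatch with germline. A single changed base in the V part, also one from a read error, thus makes the V bases after it surplus. Recurrence rises with depth and with a clonotype's level, so these figures describe the present depth.

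The J5 repertoire of rsCBE held more distinct clonotypes at equal depth, but not past adjustment. Among 1084 J5 counts drawn without replacement, 519, 559, 447, 268 and 435 distinct clonotypes were expected in WT and 578, 597, 531, 550 and 536 in rsCBE. WT replicate 4, for which 1084 is the whole sample, was the lowest, and WT replicate 2 lay within the rsCBE range. The means were 445 ± 112 and 558 ± 28.2 (± SD, 5 samples each; exact permutation p = 0.0397, adjusted p = 0.111). The difference of 113 shrank to 68.5 without WT replicate 4 (exact permutation test, adjusted p = 0.148). It passed without WT replicate 2, at 141, and, at other depths that cannot be set against it in size, without clonotypes of 1 count (128 among 967 counts) and with part a alone (62.2 among 646 counts; exact permutation test, adjusted p = 0.037 in each). The 10 commonest clonotypes of a sample took 16.2% ± 2.65 of its J5 counts in WT and 13.5% ± 1.08 in rsCBE (± SD, 5 samples each; exact permutation p = 0.0794, adjusted p = 0.159).

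J5 was joined to V segments from the whole length of the locus, and its mix of V partners was not detectably different between the genotypes. J5 joins were found with 113 of 114 V segments. The 12 partners with the highest mean percent of J5 counts together held 38.3% of J5 counts, and 8 of them lie in the orientation that joins by inversion. First by mean percent over the 10 samples was Igkv8-16 (chr6:70386672-70387252, reverse strand, 337 kb from J5), with 5.88% ± 3.73 of J5 counts in WT and 6.56% ± 3.95 in rsCBE (± SD, 5 samples each). Its spread followed the batches, at a mean of 2.17% in batch 1 and 8.91% in batch 2. Second was Igkv5-43 (chr6:69823355-69823943, reverse strand), at 4.81% ± 2.29 in WT and 5.16% ± 1.84 in rsCBE, here with 7.19% in batch 1 and 3.51% in batch 2.

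Igkv8-27 (chr6:70171809-70172270, reverse strand) followed at 3.17% ± 0.569 and 3.63% ± 0.460. Igkv5-39 took 3.97% ± 3.02 and 2.25% ± 1.13, and Igkv8-19 took 2.52% ± 1.27 and 3.58% ± 0.201 (± SD, 5 samples each). Of the 12, 4 join by deletion, all of them distal, and these were Igkv17-127 at 3.17% ± 0.421 and 2.89% ± 0.225, Igkv9-120 at 2.83% ± 0.566 and 2.59% ± 0.735, Igkv17-121 at 2.36% ± 0.487 and 2.37% ± 0.265, and Igkv2-137 at 2.51% ± 0.505 and 2.19% ± 0.535. Igkv19-93 (2.79 and 2.79%), Igkv8-24 (2.07 and 2.29%) and Igkv4-86 (2.06 and 2.19%) completed the list, each pair giving WT before rsCBE. Their level thus ran from 2.13% to 6.22% over the 10 samples. V segments that the annotation calls pseudogenes took 4.22% of J5 counts in WT and 5.09% in rsCBE.

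Reading frame differed between these partners. Of the J5 joins of Igkv5-43, a mean of 44.2% were in frame in WT and 35.5% in rsCBE, and of those of Igkv8-24, 47.8 and 47.1%. At the other end, Igkv8-27 had 81.9 and 70.4% in frame and Igkv17-121 80.5 and 65.8%. The mean was lower in rsCBE for 10 of the 12 partners and higher for Igkv8-19 (57.0 and 63.3%) and Igkv4-86 (60.5 and 68.9%). These are means over samples, with no test for single V segments.

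Across all V partners within J5 joins, 0 of 81 tested V segments (0%) differed between genotypes by edgeR's quasi-likelihood test with Benjamini-Hochberg adjustment. At an unadjusted p under 0.05 there were 2 of 81 (2.47%), and DESeq2 also called 0. With a batch term and with a replicate block the count was 0 as well, with 6 and 4 V segments at an unadjusted p under 0.05. In batch 1 alone, 4 of 87 (4.6%) passed by edgeR: Igkv12-40, 1 of 87 (1.15%), was higher in rsCBE, at a log2 fold change of 1.28, and Igkv5-39 (-0.89), Igkv15-103 (-1.30) and Igkv9-123 (-1.47) were lower. These 4 were named after their values were seen, and batch 2 alone gave 0 of 83.

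By position, V segments numbered 1 to 45 after the hyphen lie proximal to the J segments, 46 to 90 in the middle and higher numbers distal. Proximal V segments took 43.9, 41.0, 39.9, 42.9 and 41.2% of J5 counts in WT and 42.8, 42.4, 47.1, 45.2 and 44.8% in rsCBE. The groups overlapped, and the difference of 2.67 percentage points, 0.139 in batch 1 and 4.36 in batch 2, did not pass after adjustment (41.8% ± 1.59 against 44.5% ± 1.92, ± SD, 5 samples each; exact permutation p = 0.0476, adjusted p = 0.111). Middle V segments took 25.1% ± 4.01 and 23.3% ± 1.72, and distal ones 33.1% ± 2.87 and 32.2% ± 3.28 (± SD, 5 samples each; adjusted exact permutation p = 0.617 and 0.726). Joining by inversion accounted for 66.1% ± 2.02 and 65.8% ± 2.28 of J5 counts (± SD, 5 samples each; adjusted exact permutation p = 0.833). The proximal share of J5 joins exceeded that of J1 joins by 4.17 percentage points, in 9 of 10 samples (exact sign-flip p = 0.0156, adjusted p = 0.0268). It differed from that of J2 by 1.99 and from that of J4 by 0.242 percentage points, neither of which passed (adjusted exact p = 0.124 and 0.873). With each clonotype counted once the difference from J4 turned to -2.11 and passed (adjusted exact p = 0.0234), and the difference between genotypes in proximal share turned to -0.364 (exact permutation test, adjusted p = 0.825). Measured over all 114 V segments, the mean partner profile of J5 lay at a Bray-Curtis distance (0 for identical profiles) of 0.165 from that of J4, 0.176 from that of J2 and 0.422 from that of J1. In WT alone the order of J4 (0.203) and J2 (0.198) was the other way round, and in single samples the distances overlapped, from 0.15 to 0.571 for J4, 0.183 to 0.523 for J2 and 0.408 to 0.521 for J1.

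**Figure D4:**
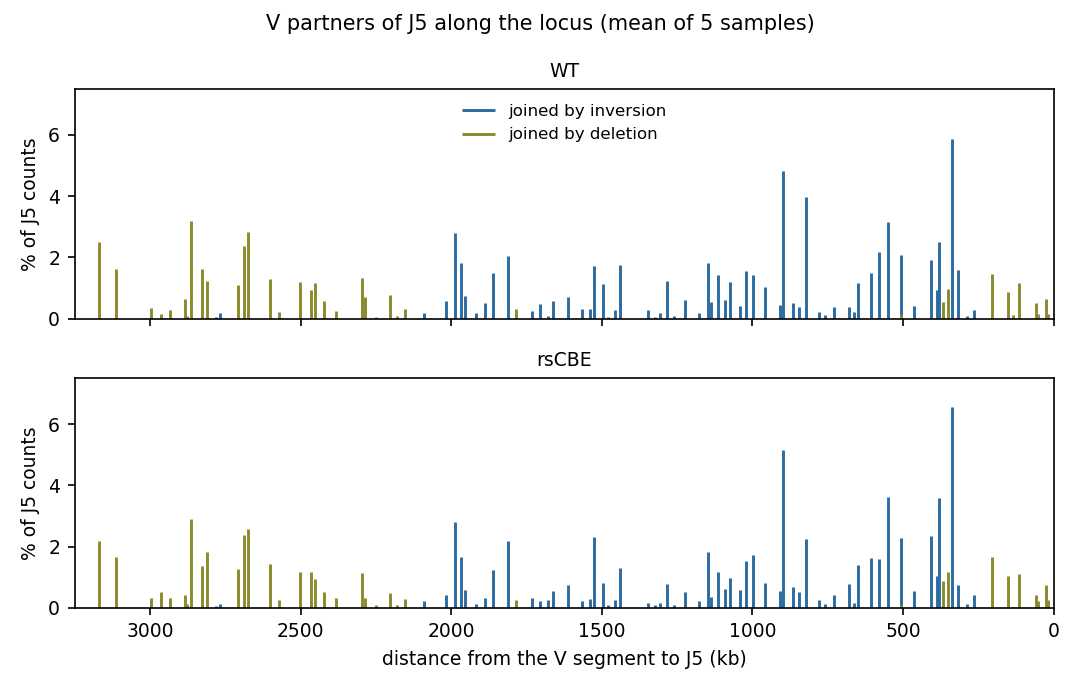
Mean percent of J5 counts (vertical axis, 5 samples each) taken by each V segment, against its distance from J5 in kb (horizontal axis, J5 at the right), in WT (top) and rsCBE (bottom); blue bars join by inversion and olive bars by deletion. Partners are spread over the whole locus in both genotypes, and the tallest bar is Igkv8-16 at 5.88% in WT and 6.56% in rsCBE.

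Seen from the V segments, the larger J5 share in rsCBE was spread over most of them. Among 51 V segments with at least 20 counts in every sample, J5 took a larger mean share of the V segment's own counts in rsCBE for 47. The median difference was 8.67 percentage points, with a range from -9.96 for Igkv6-15 to 37.9 for Igkv8-34. For the same 51 V segments the share of J1 had a higher mean in rsCBE for 5, that of J2 for 15 and that of J4 for 26, with median differences of -4.23, -1.82 and 0.063 percentage points. These shares add up to nearly all counts of a V segment, so they are not independent of each other.

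For 8 of the 51 (15.7%), all rsCBE samples lay above all WT samples, and for 0 all lay below. Among the same 51, all lay above for 0 with J1, 0 with J2 and 1 with J4. All lay below for 6, 1 and 3. Over the shares of J1, J2, J4 and J5 together, 9 of 204 (4.41%) lay above, and these include the 8 of J5. The 8 were Igkv8-34, Igkv6-20, Igkv6-32, Igkv8-18, Igkv4-50, Igkv8-27, Igkv9-120 and Igkv1-135, named after their values were seen. The J5 share of Igkv8-27 spanned 24.7 to 36.1% among WT and 40.7 to 45.7% among rsCBE samples, that of Igkv9-120 spanned 21.3 to 26.4% and 28.4 to 34.2%. For Igkv8-34 the WT samples lay between 0 and 51.0%, and the rsCBE samples between 60.0 and 77.6%. Without WT replicate 4, in which many V segments have few counts, 21 of the 51 did not overlap and 50 had a higher mean. With a sample fewer, such separation is easier to reach for any J segment. The matching counts for J1, J2 and J4 were not computed in this setting, so the 21 has no background to be set against.

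The level of J5 use varied between V segments. Among the 51 V segments with at least 20 counts in every sample, 5 had the highest mean J5 share over the 10 samples. Of these, Igkv4-69 had 57.5% ± 15.2 in WT and 59.3% ± 4.48 in rsCBE, and Igkv8-28 had 54.7% ± 26.2 and 54.2% ± 10.8. Igkv4-57 had 51.7% ± 15.5 and 60.1% ± 5.85, Igkv5-43 had 44.0% ± 9.18 and 57.5% ± 4.31, and Igkv4-86 had 42.7% ± 14.6 and 59.0% ± 4.86. Of the 5 lowest among the same 51, Igkv1-135 (chr6:67609713-67610508, forward strand, 3113 kb from J5) had 10.1% ± 2.64 and 15.4% ± 2.07. Igkv3-2 (chr6:70698449-70699067, forward strand, 24.8 kb from J5) had 8.79% ± 5.02 and 17.1% ± 4.56. These 2 lie near opposite ends of the locus. Igkv10-94, Igkv15-103 and Igkv4-80 were the others, at 13.5, 17.0 and 18.8% in WT and 22.1, 21.8 and 21.7% in rsCBE (mean ± SD of 5 samples throughout).

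**Figure D5:**
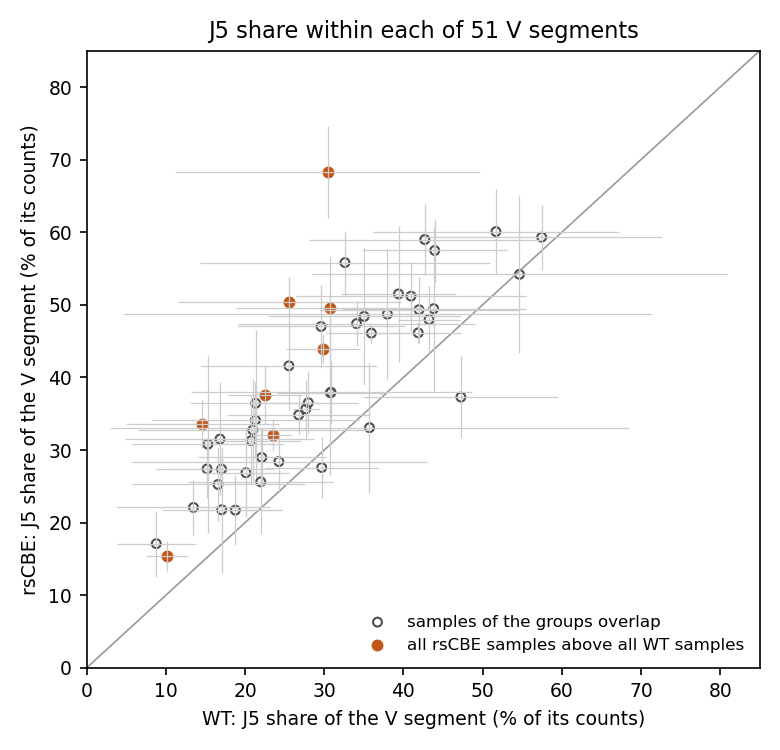
J5 share of the counts of each of 51 V segments (percent) in WT (horizontal axis) and rsCBE (vertical axis); points are means and lines the SD of 5 samples, the diagonal marks equal shares, and filled orange points are the 8 V segments with all rsCBE samples above all WT samples. Of the 51 points, 47 lie above the diagonal, and Igkv8-34 lies farthest above it, at 30.4% in WT and 68.3% in rsCBE.

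As shares of the whole repertoire, single V-J5 pairs did not pass edgeR's test without a batch term, although most of them had a higher mean level in rsCBE. Of 270 V-J pairs tested over all J segments, 83 used J5. By edgeR's quasi-likelihood test with Benjamini-Hochberg adjustment 0 of 270 (0%) were called. At an unadjusted p under 0.05 there were 11 of 83 J5 pairs, all higher in rsCBE, against 25 of 270 (9.26%) over all pairs in either direction and 12 of 270 (4.44%) higher in rsCBE. The log2 fold change was above 0 for 71 of 83 J5 pairs with a median of 0.47, against 131 of 270 (48.5%) with a median of -0.05 over all pairs. With a batch term 7 of 270 (2.59%) were called, of which 5 (1.85%) were higher in rsCBE, and all 5 used J5. DESeq2, whose own filter on low counts left 80 of the 270 pairs with an adjusted p, called 3 of 80 (3.75%), the J5 pairs of Igkv11-125, Igkv8-24 and Igkv8-27. Without that filter, an alternative added after seeing the data, it called 3 of 268 (1.12%), the J5 pairs of Igkv1-132, Igkv11-125 and Igkv8-27. Batch 1 alone gave 22 J5 pairs of 35 called among 285 (12.3%; 7.72% higher), and batch 2 alone 0 of 260. The replicate block gave 0 calls, where the batch term gave 5 for J5.

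Igkv1-132 with J5 had the largest fold change of the named pairs. This V segment lies at chr6:67759700-67760413 on the forward strand, 2963 kb from J5. The pair took 0.0615, 0.0795, 0.0362, 0 and 0.0218% of all counts in WT (14, 17, 5, 0 and 2 counts) and 0.179, 0.223, 0.252, 0.155 and 0.197% in rsCBE (43, 52, 46, 22 and 23 counts). The groups did not overlap, and the WT values rest on few counts. The log2 fold change was 2.09 ± 0.56 (SE, here and below derived from the F statistic), with an adjusted p of 0.278 by edgeR. With a batch term it was 2.16 (adjusted p = 0.0194) and with a replicate block the adjusted p was 0.051. DESeq2 gave this pair no adjusted p with its own filter, and 0.00111 without it.

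Igkv11-125 with J5 (chr6:67913573-67914052, forward strand) took 0.312, 0.407, 0.398, 0.354 and 0.273% in WT and 0.847, 1.01, 0.553, 0.611 and 0.583% in rsCBE. Its lowest rsCBE sample lay above its highest WT sample. The log2 fold change was 1.05 ± 0.29 (SE; edgeR adjusted p = 0.278, 0.033 with a batch term, 0.0709 with a replicate block). Igkv8-27 with J5 took 0.826, 1.01, 0.774, 0.868 and 0.982% in WT and 1.57, 1.56, 1.48, 1.08 and 1.42% in rsCBE. These groups did not overlap either, with a log2 fold change of 0.67 ± 0.26 (SE; edgeR adjusted p = 0.459, 0.0266 with a batch term). Igkv8-18 with J5, the third by p in the fit without a batch term, took 0.150% ± 0.036 and 0.339% ± 0.130 (± SD, 5 samples each; log2 fold change 1.13, edgeR adjusted p = 0.459, 0.141 with a batch term).

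Igkv5-43 and Igkv8-16, the most used partners of J5, were called only with a batch term among the edgeR fits over all 10 samples. Igkv5-43 with J5 took 1.66, 1.97, 1.01, 1.09 and 0.841% in WT and 2.51, 3.10, 1.59, 1.29 and 1.66% in rsCBE. The groups overlapped over all samples and did not overlap within either batch. Its log2 fold change was 0.62 without and 0.63 with a batch term (edgeR adjusted p = 0.546 and 0.0143). Igkv8-16 with J5 took 0.413, 0.640, 1.78, 3.57 and 2.62% in WT and 0.889, 0.880, 3.79, 3.42 and 3.83% in rsCBE. In batch 2 the WT replicate 4 value exceeded that of rsCBE replicate 4. Its log2 fold change was 0.53 without and 0.59 with a batch term (edgeR adjusted p = 0.795 and 0.0456). Without the batch term it was 0.27 when WT replicate 1 was left out and 0.92 when WT replicate 4 was.

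The 3 J5 pairs with the smallest p among those with a lower mean in rsCBE were those of Igkv6-15, Igkv15-103 and Igkv4-80. Their log2 fold changes were -0.67, -0.64 and -0.65, with edgeR adjusted p of 0.635, 0.726 and 0.732, and the groups overlapped for each. Each depended on single samples: the value moved to -0.38 for Igkv6-15 without WT replicate 4, to -0.07 for Igkv15-103 without WT replicate 1 and to -0.23 for Igkv4-80 without WT replicate 3. Igkv6-15 (chr6:70406469-70406992, reverse strand) took 0.473% ± 0.272 of all counts with J5 in WT and 0.288% ± 0.123 in rsCBE (± SD, 5 samples each). Its J5 share of its own counts was 47.3% ± 12.3 and 37.3% ± 5.66. Reads of near-identical V segments may have been divided between family members before deposition, so values of single V segments are uncertain to that extent.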

How the data were processed

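Whole-number counts per combination of V call, J call and CDR3 were taken as deposited by the authors, not normalized per the file headers, for 10 samples in 16 libraries. Per the submitters' processing notes the genome build was mm10. The V and J caller, read filters and whether a count is a read or a molecule are not given in the sources used here. Counts were therefore not taken as independent molecules, and intervals cover counting error only.

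Alleles were merged, parts a and b of a replicate were added, and 49 duplicate lines of 49079 were merged. Residues were translated from the CDR3 bases; on 56 whole-codon lines (60 counts) the deposited residues were different. A join was in frame where its length was a multiple of 3 and it held no stop. Coordinates and germline ends are from GENCODE M21 (GRCm38), which placed 112 of 114 V segments; kept J bases are the longest end shared with germline J.

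Single values were tested by exact two-sided permutation, or exact sign-flip tests within samples, with Benjamini-Hochberg adjustment over 5 J segments or over 14, 3 or 12 comparisons at 0.05. V-J pairs and V partners were tested with edgeR 4.0.16 (quasi-likelihood, filterByExpr, total count as library size) in R 4.3.3, checked on simulated data, with DESeq2 1.42.0 as an alternative. The simulated data had no batches and the same dispersion for all pairs, so the check does not measure error or power in the present samples. The SE of an edgeR log2 fold change was taken as its size divided by the square root of the F statistic. Other alternatives were TMM factors, no filter, a batch term, a replicate block, labels exchanged only within batches, each batch or part alone, each clonotype once, no clonotypes of 1 count, and leaving out each sample.

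Named were the 12 V segments with the highest mean percent of J5 counts over the samples, the J5 pairs past 0.05 in either fit, the 3 pairs of smallest p in each direction, and, among the 51 V segments with at least 20 counts in every sample, the 5 with the highest and the 5 with the lowest J5 share. These choices and the division into J5 joins were made with earlier results of these data known. The labels do not say whether replicates are separate animals, so p-values measure the spread between these samples. As a check for a library deposited again, V counts in J5 joins of samples of a genotype were compared, and chi-square over its degrees of freedom was at least 2.11; this sets counting error alone as noise and does not measure the spread between animals.

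Replicate numbers in the titles are shared by WT and rsCBE. Deviations from the group means over 51 V segments correlated between same-numbered samples at 0.759, 0.639, 0.288, 0.169 and 0.366. The numbers were taken as pairs only in the replicate block, an alternative, and the main tests between genotypes were unpaired. Samples of the same batch with other numbers correlated alike (0.701 for rsCBE replicate 1 with WT replicate 2), some more and some less than same-numbered ones. For rsCBE replicate 4 the value was 0.497 with WT replicate 5 and 0.169 with WT replicate 4. A pairing by number thus cannot be told apart from the batch.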

Additional observations from a re-analysis of the deposited data

Results flagged for a closer look

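In WT replicate 4, the in-frame share of J5 joins lay 11.2 percentage points below that of the other joins (-11.2), and that of the other 4 WT samples between -4.11 and -2.92. The gap to the nearest sample was 0.857 of the range of the 5, above Dixon's critical value of 0.71. Of 36 groups of 5 samples checked, 1 held such a sample, and chance gives 1 in 20 groups. This sample has the fewest counts, 3109 in all and 1084 with J5.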

How the results depend on the processing

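The larger J5 share in rsCBE kept its direction in all alternatives run. Its difference was 10.1 percentage points with part b alone, 14.6 in batch 1, 7.84 in batch 2 and 10.5 with the replicate block (adjusted exact p of 0.0794, 0.417, 0.25 and 0.104), none past the threshold; the single batches and the block cannot reach it. With labels exchanged only within batches no call changed; the J5 shares of in-frame and of other joins, surplus bases and distinct clonotypes had an adjusted exact p of 0.0583 there. The replicate block, which pairs samples by number, called 0 J5 pairs and 0 V partners and changed no other call. Calls of J5 pairs went from 0 to 5 with a batch term, 22 in batch 1 and 3 by DESeq2, with its filter on low counts or without it (3), and of V partners from 0 to 4 in batch 1. The 7 differences between J5 and other J segments became 0 in WT alone and 0 in rsCBE alone, where 5 samples cannot pass.

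With each clonotype counted once, the in-frame share (-9.46) and the J5 share of in-frame (5.59) and of other joins (9.04) passed. The proximal (-0.364) and middle (0.774) V shares changed sign, as did J5 minus other joins in proximal share (-0.904) and J5 against J4 in in-frame (0.296) and proximal share (-2.11, adjusted exact p = 0.0234). This setting gave no value for distinct clonotypes or the 10 commonest. Without clonotypes of 1 count, the J5 share of in-frame (9.42) and other joins (14.6) and distinct clonotypes (128) passed, as did J5 against J4 in in-frame share (-2.53), and the LT end (-0.206) and bases kept (-0.00597) changed sign. With part a alone both shares and distinct clonotypes passed (9.35, 13.3 and 62.2). The exact p of both shares was already the smallest possible with all counts, so their passing in these settings depended on the other readouts adjusted alongside. The last was drawn at 967 and 646 counts in these settings. Part b alone turned the inversion share (0.188). In batch 1, bases kept (-0.0365), untrimmed ends (-1.76), the distal share (0.885) and Igkv4-80 with J5 (log2 fold change 0.12) changed sign, in batch 2 the inversion share (1.48), and in WT alone the proximal share of J5 against J4 (-1.08). The cause of these changes was not tested.

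Leaving out 1 sample at a time gave differences of -9.19 to -5.18 for the in-frame share, 8.05 to 10.01 for the J5 share of in-frame joins and 11.4 to 15.4 of other joins. It gave -0.157 to 1.91 for the LT end, -0.065 to 1.61 for untrimmed ends, -0.993 to 0.439 for the inversion share and 68.5 to 141 for distinct clonotypes, which passed without WT replicate 2. J5 minus other joins in in-frame share ran from -4.84 to -2.76. The V segments without overlap, 8 in all samples, numbered 8 to 21, with 21 without WT replicate 4. These counts were added after seeing the data and were not computed for the other J segments, so they have no background. In WT replicate 4, 1084 J5 counts limit what can be seen for single V segments.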
